A study of Homo sapiens with 19 samples.

Results

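The promoters described here carried dimethylation of histone H3 lysine 4 (H3K4me2) but no called trimethylation (H3K4me3) in vehicle-treated MOLM-13 cells, an established human acute myeloid leukaemia line. A promoter was the 1 kb on either side of the transcription start site (TSS) of a protein-coding gene in GENCODE release 44, on the hg38 assembly, a window of 2001 bp. A gene was a member when an H3K4me2 peak reached its window in both DMSO lists of that mark and an H3K4me3 peak reached it in neither DMSO list of that mark. By this rule 1851 of 20033 windows were members (9.24%), and they formed 1747 separate sites once overlapping windows were joined. Both marks lay on 9089 other promoters and neither mark on 8007. The remaining 1086 were mixed between replicates or carried H3K4me3 without H3K4me2.

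Cultured MOLM-13 cells, for which the labels give no genetic change, received either Corin or the vehicle DMSO for 24 h, and chromatin was profiled by CUT&RUN, in which a nuclease tethered by an antibody releases the fragments that carry a mark. The labels give 0.1 µM for both groups, and what that dose means for DMSO is not given. Corin inhibits LSD1 and the class I histone deacetylases of the CoREST complex. There were 2 libraries for each of H3K4me2, H3K4me3 and H3K27ac in each treatment, 12 in all, each with its own list of called peaks. The 7 other libraries of the series were not used. Nothing says that replicates came from separate cultures, so the spread between them may be technical. A further limit is that 1 cell line at 1 time was studied.

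LSD1, also called KDM1A, removes methyl groups from mono- and dimethylated lysine 4 but cannot act on the trimethylated form, which is laid down at promoters mainly by SET1 and MLL complexes. H3K4me2 without H3K4me3 is known from enhancers and from promoters that are poised or weakly used, and in blood cells it marks lineage genes before they are fully expressed. H3K27ac, set by p300 and CBP and removed by histone deacetylases, marks active promoters and enhancers. CpG-rich promoters recruit H3K4 methyltransferase complexes through CXXC proteins, whereas many myeloid genes have CpG-poor promoters bound by PU.1 and C/EBP factors.

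The promoter sequences below show the range of CpG content among the members, which differed between the members that gained H3K27ac and the rest. Each is the 250 bases just before the annotated TSS, read 5′ to 3′ on the strand of the gene from the hg38 reference, with CG dinucleotides in capitals. CD68 (ENSG00000129226.14, + strand, chr17:7579241-7579490) gained H3K4me3. FCGR2A (ENSG00000143226.16, + strand, chr1:161505180-161505429) gained both marks. CNR2 (ENSG00000188822.8, - strand, chr1:23913363-23913612) and SIGLECL1 (ENSG00000179213.14, + strand, chr19:51246098-51246347) gained H3K27ac. SORT1 (ENSG00000134243.12, - strand, chr1:109397919-109398168) and TTYH2 (ENSG00000141540.11, + strand, chr17:74213321-74213570) gained H3K4me3 alone. DLL4 (ENSG00000128917.8, + strand, chr15:40929090-40929339) had neither H3K4me3 nor H3K27ac in any list.
CD68: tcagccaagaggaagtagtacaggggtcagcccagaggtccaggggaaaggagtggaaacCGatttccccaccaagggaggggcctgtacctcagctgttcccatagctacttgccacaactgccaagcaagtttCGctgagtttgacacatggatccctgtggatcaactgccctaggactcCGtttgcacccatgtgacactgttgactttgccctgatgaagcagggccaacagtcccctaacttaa
FCGR2A: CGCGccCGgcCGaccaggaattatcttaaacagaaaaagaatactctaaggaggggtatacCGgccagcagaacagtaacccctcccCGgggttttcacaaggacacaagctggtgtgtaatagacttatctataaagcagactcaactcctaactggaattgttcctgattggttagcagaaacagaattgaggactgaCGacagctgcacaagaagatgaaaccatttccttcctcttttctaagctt
CNR2: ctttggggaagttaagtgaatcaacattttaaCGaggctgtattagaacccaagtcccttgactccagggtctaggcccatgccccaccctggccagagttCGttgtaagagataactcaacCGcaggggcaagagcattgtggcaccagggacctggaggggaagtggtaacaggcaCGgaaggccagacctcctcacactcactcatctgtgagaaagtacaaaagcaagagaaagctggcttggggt
SIGLECL1: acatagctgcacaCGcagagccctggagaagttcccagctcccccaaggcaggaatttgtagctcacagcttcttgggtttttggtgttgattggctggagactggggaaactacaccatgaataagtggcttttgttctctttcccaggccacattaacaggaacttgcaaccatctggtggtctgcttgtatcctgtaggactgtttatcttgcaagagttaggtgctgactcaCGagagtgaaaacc
SORT1: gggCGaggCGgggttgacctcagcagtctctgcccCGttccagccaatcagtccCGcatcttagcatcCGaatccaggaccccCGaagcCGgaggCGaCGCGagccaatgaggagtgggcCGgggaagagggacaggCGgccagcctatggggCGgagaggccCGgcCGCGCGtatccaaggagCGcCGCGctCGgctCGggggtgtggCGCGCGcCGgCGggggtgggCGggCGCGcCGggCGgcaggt
TTYH2: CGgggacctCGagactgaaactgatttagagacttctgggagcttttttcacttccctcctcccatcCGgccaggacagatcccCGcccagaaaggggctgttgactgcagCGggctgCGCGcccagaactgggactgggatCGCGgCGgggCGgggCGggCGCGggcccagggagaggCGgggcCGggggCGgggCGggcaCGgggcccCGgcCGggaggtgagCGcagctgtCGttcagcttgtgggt
DLL4: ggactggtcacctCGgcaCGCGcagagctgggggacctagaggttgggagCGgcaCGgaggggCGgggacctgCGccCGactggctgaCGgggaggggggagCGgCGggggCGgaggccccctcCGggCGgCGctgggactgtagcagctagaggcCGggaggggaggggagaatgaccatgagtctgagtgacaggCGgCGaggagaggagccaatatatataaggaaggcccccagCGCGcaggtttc
The CD68 bases lie in an exon of an annotated long non-coding RNA (ENSG00000264772), and the first 22 bases of the TTYH2 sequence overlap the non-coding gene MGC16275. No annotated exon covers the other 5. These 250 bases held 3 CG dinucleotides at CD68, 7 at FCGR2A, 4 at CNR2 and 2 at SIGLECL1, against 32 at SORT1, 23 at TTYH2 and 20 at DLL4. The CD68 sequence contains the PU.1 motif GAGGAAGT and the FCGR2A sequence the TATA motif TATAAA, on one strand or the other.

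The peak lists held 11104 and 11343 H3K4me3 peaks in DMSO and 11757 and 11883 in Corin. H3K27ac lists held 17599 and 19995 in DMSO and 34424 and 30029 in Corin. H3K4me2 lists held 30896 and 32299 in DMSO and 41152 and 40042 in Corin. The Corin lists were thus longer for every mark, and this moved together with each gain given here. The total gains, the longest gains, the gains of both marks and those in the gene lists are therefore also given at matched peak number. There every list of a mark was reduced to its top-scoring peaks at the size of its shortest list. Other named gains, and the gain shares by DMSO H3K27ac and by CpG class, rest on the full lists alone. The read depth behind each list is unknown beyond a labelled minimum of 5000000 reads. As a check on the cell type, H3K4me2 and H3K4me3 together lay on 10 of 20 stem and progenitor genes, 4 of 18 granulocyte genes, 2 of 30 monocyte genes, 0 of 12 B-cell genes, 1 of 21 T and NK genes and 2 of 15 erythroid and megakaryocyte genes in DMSO. Over all windows the share was 45.4%, so the first list was near it and the others were below it, the monocyte and granulocyte lists included.

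In DMSO, H3K4me2 covered a median of 860 bp of the member windows in replicate 1 and 1014 bp in replicate 2. The peak lay over the TSS itself in 61.8% and 72.9% of members, and 62.7% and 62.9% of the covered bases were downstream of the TSS. Promoters with both marks had longer H3K4me2, with medians of 1233 and 1431 bp, and 54.1% and 55.3% of it lay downstream. Both DMSO lists thus gave the members a shorter H3K4me2 domain, placed more on the transcribed side. The median distance from a member TSS to the nearest DMSO H3K4me3 peak was 52.9 kb, although 200 members (10.8%) had one within 5 kb, and 209 (11.3%) had another annotated start of the same gene that carried H3K4me3. VKORC1, an enzyme that recycles vitamin K, had its nearest H3K4me3 peak 1003 bp from the TSS and CD300LB, a myeloid surface receptor, 1006 bp, so both were just inside the rule. RHBDF1, an inactive rhomboid protein, and the read-through gene ATP6V1G2-DDX39B were just outside it, with 7 bp and 4 bp of H3K4me3 in 1 DMSO list.

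After Corin, 1812 members (97.9%) kept H3K4me2 in both lists and 3 had it in none. H3K4me2 covered a median of 1102 and 1068 bp of the windows in Corin. It was longer in both Corin lists than in both DMSO lists in 667 members (36.0%) and shorter in 85, with 11.5% longer and 6.44% shorter over all windows. The DMSO H3K4me2 lists chose the members, so these values are a description.

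**Figure D1:**
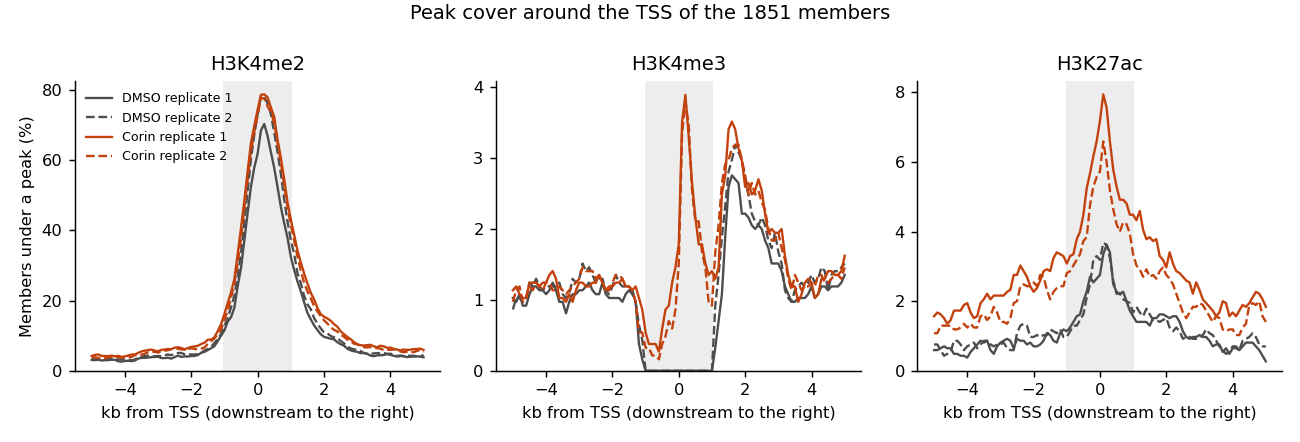
Share of the 1851 members under a peak (y axis, %) by distance from the TSS (x axis, kb, gene direction to the right) for each mark. Lines are single libraries, the grey band is the 2001 bp window, and H3K4me3 is 0 there in DMSO by the rule. H3K4me2 is highest 100 or 200 bp downstream of the TSS, at 70.2% or more in every library, and H3K27ac reaches 7.94% and 6.59% in Corin against 3.62% and 3.67% in DMSO.

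H3K4me3 appeared in both Corin lists at 72 members (3.89%), at 68 separate sites. Over all 20033 windows the share was 0.359%, and all 72 such windows were members. The rule used this contrast, so nothing is read from the comparison. Another 155 members had H3K4me3 in 1 Corin list only. Single Corin lists put H3K4me3 on 163 and 136 members. The same rule applied the other way round, to 2017 windows with H3K4me2 and no H3K4me3 in Corin, found H3K4me3 in both DMSO lists at 19, and 0.0998% of all windows lost H3K4me3. The order turned at matched peak number: 42 members gained H3K4me3, and 52 of 1809 windows had it in DMSO alone. The excess of gains over the opposite change was thus not seen in that setting, which also drops the lowest-scoring peaks and redefines the members. Of the 72 members, 38 still gained H3K4me3 at matched number. Leaving out DMSO replicate 1 or 2 of H3K4me3 gave 110 or 231 gaining members, and leaving out Corin replicate 1 or 2 gave 136 or 163.

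The gained H3K4me3 peaks were small. Their median score was 109.5 in each Corin list, against list medians of 360 and 401, so they ranked at a median percentile of 10.9 and 10.2 within their own lists. Scores are the authors' and were used only within a list. Their median width was 382 bp in each list, against 1154 and 1105 bp for all peaks. At 67 of the 72 members the peak was new, and at 5 it touched an H3K4me3 peak that lay outside the window in DMSO. Of the bases of gained H3K4me3, 80.4% and 85.1% lay downstream of the TSS, compared with 66.2% and 65.2% of the DMSO H3K4me3 at promoters with both marks. The peak covered the TSS itself at 16 and 12 of the 72.

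**Figure D2:**
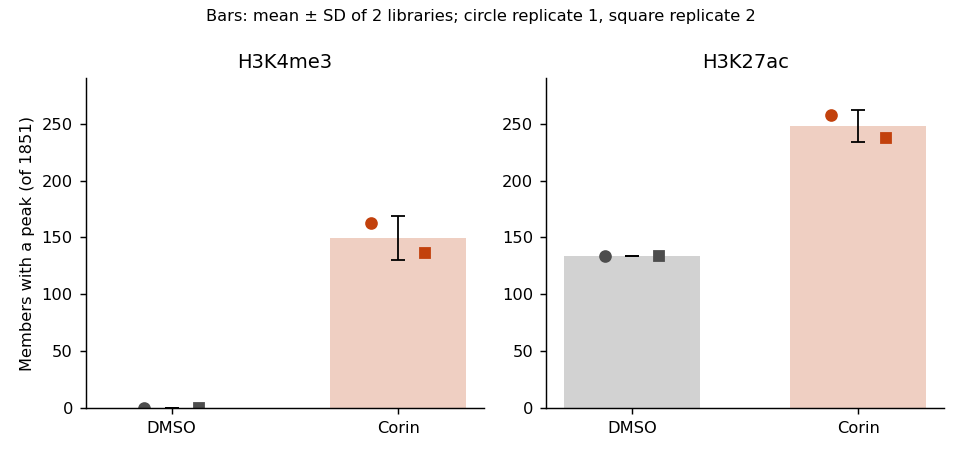
Number of the 1851 members with a peak in each library (y axis) for H3K4me3 and H3K27ac. Bars are the mean ± SD of 2 libraries and points the single libraries. H3K4me3 is 0 in DMSO by the rule and 163 and 136 in Corin, and H3K27ac is 134 and 134 in DMSO and 258 and 238 in Corin.

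The members with the longest gained H3K4me3 differed in function and in CpG content. SORT1 encodes sortilin, a receptor that sorts proteins to lysosomes. H3K4me3 covered 0 and 0 bp of its window in DMSO and 1072 and 973 bp in Corin, and H3K27ac was absent from all 4 lists. TTYH2, of the tweety membrane protein family, went from 0 and 0 bp to 1108 and 948 bp, with H3K4me2 over the whole 2001 bp in all 4 lists. Both promoters were CpG-rich, with a CpG observed over expected ratio of 0.883 at SORT1 and 0.641 at TTYH2, and the new mark lay on an H3K4me2 domain already present. RBM47, an RNA-binding protein, gained 968 and 951 bp, and its H3K27ac was 0 and 0 bp in DMSO and 355 and 0 bp in Corin. FAM131A gained 723 and 642 bp. HIPK2, a kinase that acts on p53 after DNA damage, gained 570 and 698 bp. Its window overlaps that of TBXAS1 on the opposite strand, which gained 362 and 741 bp. The gain there cannot be assigned to a single gene. FAM131A, HIPK2 and TBXAS1 had no H3K27ac in any list. DNASE2, the lysosomal DNase, gained 819 and 514 bp as its H3K4me2 went from 1054 and 1360 bp to 1969 and 1860 bp. Its H3K27ac was seen in 1 Corin list alone.

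A second set of long H3K4me3 gains lay on CpG-poor promoters that already had H3K27ac in DMSO. CD68, a lysosomal glycoprotein used as a macrophage marker, had 0 and 0 bp of H3K4me3 in DMSO and 813 and 814 bp in Corin. Its H3K27ac covered 766 and 792 bp in DMSO and 1359 and 755 bp in Corin, so the treatments overlapped for that mark. The nearest DMSO H3K4me3 peak lay 1394 bp from its TSS. GLIPR1, a secreted protein of the CAP family, had 928 and 922 bp of H3K4me3 in Corin. Its H3K27ac went from 241 and 465 bp to 1281 and 973 bp, above both DMSO lists. PIK3CD encodes the leukocyte catalytic subunit of phosphoinositide 3-kinase. Its H3K4me3 reached 724 and 589 bp in Corin and its H3K27ac went from 223 and 968 bp to 1753 and 1848 bp. BAZ2A, a subunit of a nucleolar remodelling complex, had 983 and 449 bp of H3K4me3 in Corin, and its H3K27ac of 768 and 0 bp in DMSO and 1413 and 484 bp in Corin overlapped between treatments. PIK3CD and BAZ2A each had another annotated start with H3K4me3 in DMSO. Of the 10 longest H3K4me3 gains, 9 were kept at matched peak number, all but HIPK2.

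H3K4me3 was gained more often where H3K27ac was already present in DMSO. It was gained by 51 of 1674 members without DMSO H3K27ac (3.05%), by 8 of 86 with it in 1 DMSO list (9.3%) and by 13 of 91 with it in both (14.3%). These are counts with no test, since the gain uses the contrast of the rule. The 13, named after their values were seen, were PIK3CD, PTPN22, GLIPR1, RNASE6, IRF9, DRC7, CD68, CIRBP, NLRP12, TYROBP, SIRPB2, ZMYND8 and PARVG. H3K27ac was longer in both Corin lists than in both DMSO lists at 8 of the 13 (61.5%), near the 47 of 91 (51.6%) for all members with H3K27ac in both DMSO lists. TYROBP encodes DAP12, the signalling adaptor of many myeloid receptors. It had 259 and 390 bp of H3K4me3 in Corin, and H3K27ac went from 1261 and 843 bp to 2001 and 1640 bp. NLRP12, a myeloid NOD-like receptor, had 260 and 255 bp of H3K4me3 in Corin, while its H3K27ac went from 222 and 295 bp to 1408 and 1390 bp. In both genes H3K27ac lay higher in each Corin list than in either DMSO list. H3K27ac was in none of the 4 lists at 42 of the 72 H3K4me3 gainers (58.3%) and at 1552 of all members (83.8%). ABCA1, the cholesterol exporter, also chosen after its values were seen, was one of them, with 582 and 625 bp of H3K4me3 in Corin.

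**Figure D3:**
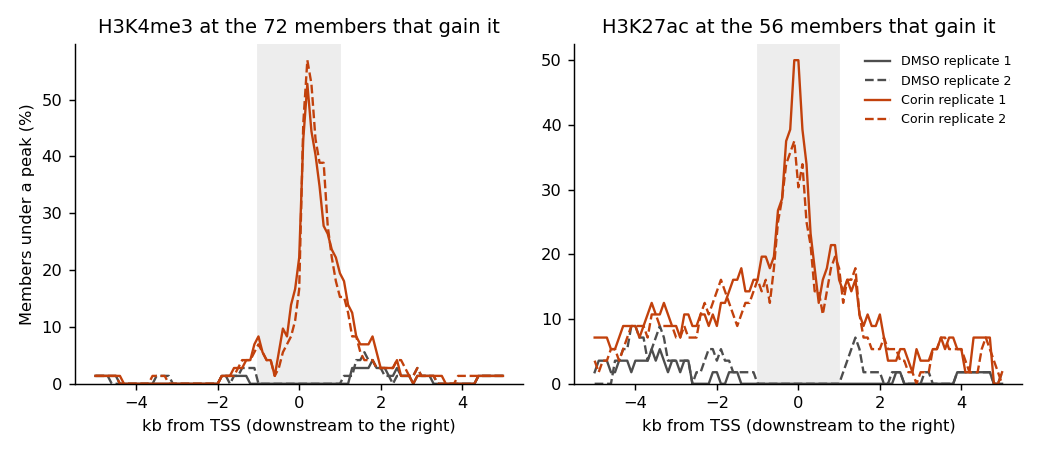
Share of members under a peak (y axis, %) by distance from the TSS (x axis, kb, gene direction to the right), for H3K4me3 at the 72 members that gained it and H3K27ac at the 56 that gained it. Lines are single libraries. Gained H3K4me3 is highest 200 bp downstream of the TSS, at 52.8% and 56.9%, and gained H3K27ac 100 bp upstream, at 50% and 37.5%; the DMSO lines are 0 within the window by the definition of a gain.

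H3K27ac was not used to choose the members. It lay on 134 and 134 of the 1851 members in DMSO and on 258 and 238 in Corin, 134 ± 0 against 248 ± 14.1 (SD, n = 2 each). Both Corin lists were above both DMSO lists. The log2 ratio was 0.89 with an SD of 0.082, or 1.85-fold, and the exact two-sided permutation test gave p = 0.333, the smallest that 2 libraries against 2 can give, so no such test here can pass 0.05. H3K27ac covered 83.3 and 85.7 kb of the member windows in DMSO and 196.1 and 160.6 kb in Corin. The mean length per peak-bearing member was 622 and 640 bp in DMSO and 760 and 675 bp in Corin. The log2 ratio of covered length was 1.08 with an SD of 0.205 (exact permutation p = 0.333). The corresponding value at promoters with both marks was 0.62 (SD 0.273). The difference of 0.45, with an SD of 0.232, was at the same limit of p = 0.333 in the exact permutation test. At matched peak number the log2 ratio was 0.31 for the number of members and 0.68 for the covered length, and the difference from promoters with both marks was 0.28, all smaller than with the full lists. With the full lists, leaving out DMSO replicate 2 of H3K27ac moved the difference from promoters with both marks to 0.29. Leaving out Corin replicate 1 or 2 gave 0.39 or 0.51. In each of these 2 Corin settings another arrangement of the libraries gave a difference at least as large in size.

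H3K27ac was gained, in both Corin lists and neither DMSO list, at 56 members (3.03%), and lost at 0. Over all windows 3.06% gained it and 0.0349% lost it, so the members gained it about as often as promoters in general. H3K27ac was absent from both DMSO lists at 1674 members (90.4%), against 63.9% of all windows, 25.6% of promoters with both marks and 99.5% of those with neither. Of these members, 3.35% gained it. Among windows without DMSO H3K27ac, the share was 22.2% of 2329 promoters with both marks, 0.188% of 7967 with neither and 4.79% overall. With the lists matched, 17 of 1877 members gained H3K27ac (0.906%) and 1 lost it (0.0533%). The shares over all windows were 0.943% and 0.714%, and for promoters with both marks 1.72% and 1.54%. Most members had no H3K27ac to lose, and 16 of the 56 gains were kept. Leaving out 1 H3K27ac library gave 80 to 93 gaining members, with 91 without DMSO replicate 2, 85 without Corin replicate 1 and 93 without Corin replicate 2. H3K27ac was longer in both Corin lists than in both DMSO lists at 135 members (7.29%) and shorter at 3 (0.162%), with 19.4% and 0.404% over all windows.

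Gained H3K27ac peaks had scores near the middle of their lists, in contrast to the gained H3K4me3. Their median scores were 107 and 101, against list medians of 112 and 116, and their median widths were 524.5 and 418 bp, against 501.5 and 457 bp. The gained H3K27ac was spread on both sides of the TSS, with 44.7% and 44.2% of it downstream. Another annotated start of the same gene carried H3K4me3 in DMSO at 11 of the 56 H3K27ac gainers (19.6%), against 11.3% of members. A DMSO H3K4me3 peak lay within 10 kb of 35.7% of these gainers and of 18.3% of members.

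The 10 longest H3K27ac gains included CNR2, ASGR2 and 3 SIGLEC genes. CNR2, the cannabinoid receptor of immune cells, had 0 and 0 bp in DMSO and 829 and 1260 bp in Corin, and H3K4me3 of 723 bp in Corin replicate 1 alone. ASGR2, a lectin subunit of the asialoglycoprotein receptor that is also made by macrophages, had 1178 and 997 bp in Corin. Many genes of the SIGLEC family encode sialic acid-binding receptors, most of them inhibitory. SIGLECL1 had 1231 and 1005 bp of H3K27ac in Corin, SIGLEC9 844 and 510 bp and SIGLEC12 421 and 928 bp, all from 0 in both DMSO lists. None of these 3 had H3K4me3 in any list. H3K4me2 at SIGLECL1 also went from 833 and 977 bp to 1732 and 1700 bp, above both DMSO lists.

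Of the other 5, RTL3, a gene derived from a retrotransposon, had 1348 and 1145 bp of H3K27ac in Corin, and its H3K4me2 went from 425 and 623 bp to 1717 and 1869 bp. GDF15, a stress-induced cytokine, had 1105 and 330 bp of H3K27ac. NAGK, a kinase of N-acetylglucosamine, had 733 and 756 bp, IGFLR1, a receptor of the TNF receptor type, 646 and 751 bp, and TEX45 712 and 667 bp. H3K4me3 was absent from the windows of these 5 in all lists, although NAGK and IGFLR1 each had another annotated start with H3K4me3 in DMSO. Of the 10 longest H3K27ac gains, 5 were kept at matched peak number: ASGR2, CNR2, NAGK, SIGLEC9 and SIGLECL1.

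Both marks were gained at 2 members, 2.78% of the H3K4me3 gainers and 3.57% of the H3K27ac gainers. FCGR2A encodes the activating Fc gamma receptor IIa of monocytes and neutrophils. It had 358 and 591 bp of H3K4me3 and 608 and 470 bp of H3K27ac in Corin, from 0 in every DMSO list of both marks, on H3K4me2 of 1355 and 1453 bp in DMSO and 1483 and 1481 bp in Corin. FCGR2A has near-identical neighbours, and how reads that fit several of them were placed is not given in the sources used here. FAM104B had 224 and 881 bp of H3K4me3 and 307 and 332 bp of H3K27ac in Corin. No member gained both at matched peak number: FAM104B kept its H3K4me3 gain alone and FCGR2A kept neither. Of the 56 H3K27ac gainers, 46 had H3K4me3 in no Corin list and 8 had it in 1. These overlaps are near the shares over all members, 3.03% for H3K27ac and 3.89% for H3K4me3, so nothing is read from them. A member with H3K27ac in DMSO cannot gain it by definition, and 12 of the 72 H3K4me3 gainers (16.7%) had longer H3K27ac in both Corin lists than in both DMSO lists, against 7.29% of members and 19.4% of all windows. In all, 126 members (6.81%) gained either mark.

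**Figure D4:**
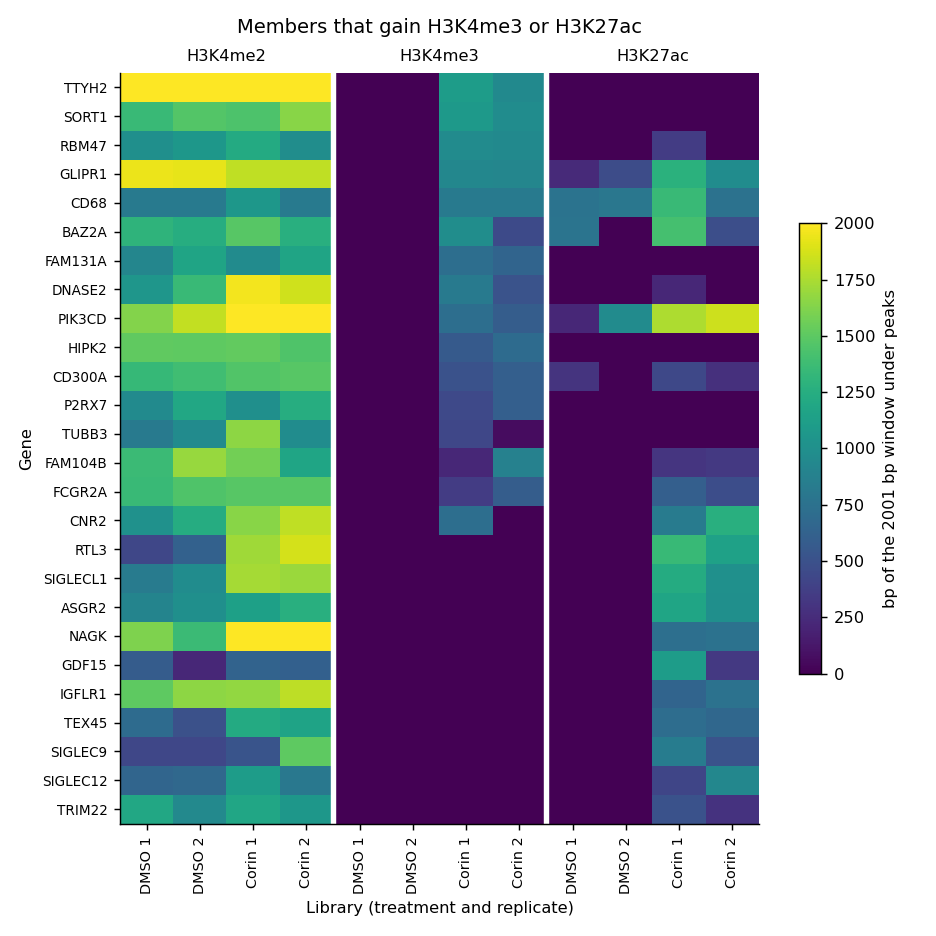
Length of the 2001 bp window under peaks (colour, bp) for the named members that gained H3K4me3 or H3K27ac (rows), in each of 12 libraries (columns, grouped by mark). H3K4me2 is present in all libraries of every gene, H3K4me3 gains are at the top, H3K27ac gains at the bottom, and FAM104B and FCGR2A have both.

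The members that gained each mark differed in CpG content. The median CpG observed over expected ratio of the window was 0.628 in the members, between 0.708 at promoters with both marks and 0.300 at those with neither. It was 0.578 at the 72 H3K4me3 gainers and 0.282 at the 56 H3K27ac gainers, of which 45 (80.4%) were below 0.4. Of all members, 23.9% were below 0.4. Among promoters with both marks the H3K27ac gainers had a median of 0.694, and 2.7% were below 0.4, as were 2.71% of that whole class. At matched peak number the median of the 17 remaining H3K27ac gainers among the members was 0.286, and 15 were below 0.4. Promoters with neither mark had 9 H3K27ac gainers in that setting, 8 of them below 0.4. With the full lists, 62.4% of that class was below 0.4, so low CpG in gainers was not particular to the members. By CpG class, H3K27ac was gained by 12.1% of members below 0.2, 9.43% from 0.2 to 0.4, 1.28% from 0.4 to 0.6, 0.687% from 0.6 to 0.8 and 0.345% from 0.8. H3K4me3 was gained by 4.84%, 7.55%, 2.56%, 2.88% and 3.79% of the same classes, with no steady order.

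The CpG-poor members also held most of the H3K27ac in DMSO. Below a ratio of 0.4, H3K27ac lay on 113 and 110 of 442 members in DMSO and 203 and 194 in Corin, a log2 ratio of 0.83 (SD 0.054), or 1.78-fold. At 0.6 or more it lay on 7 and 8 of 1018 members in DMSO and 19 and 15 in Corin, a log2 ratio of 1.18 (SD 0.277), or 2.27-fold. The low class minus the high class differed by -0.35 on the log2 scale (SD 0.254), with p = 0.333 in the exact two-sided permutation test, the smallest it can give. Gains were thus more numerous in the class that held more H3K27ac in DMSO, and the fold in that class was not the larger one. Of the 91 members with H3K27ac in both DMSO lists, 78 were below 0.4, 89 kept it in both Corin lists, and it was longer in Corin at 47 and shorter at 3.

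**Figure D5:**
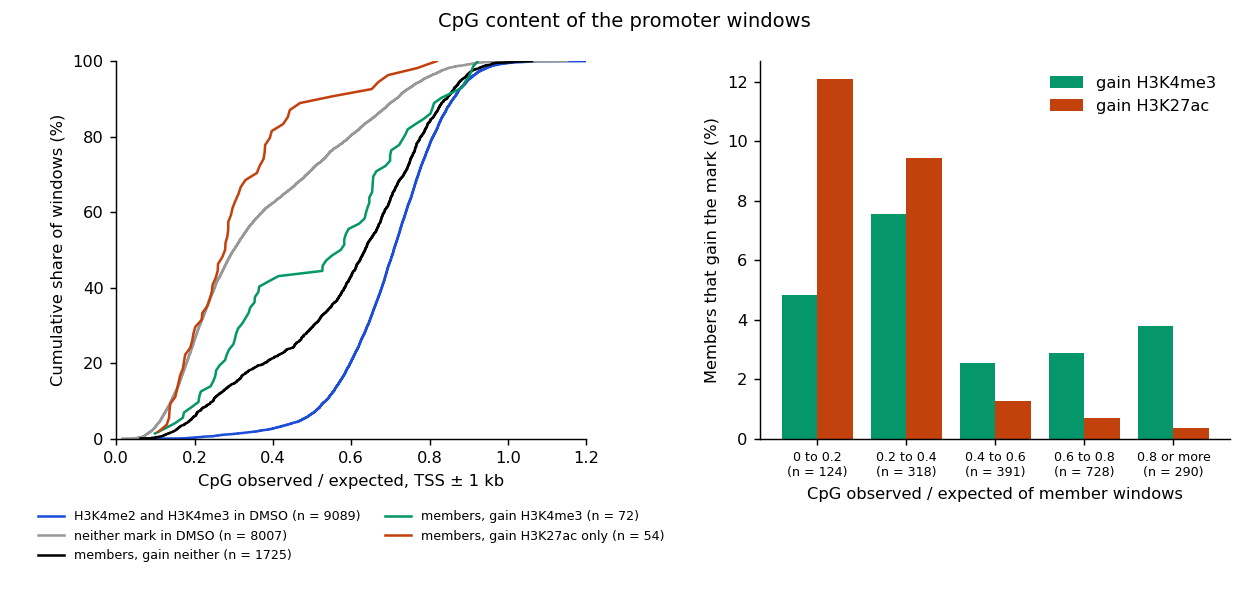
CpG observed over expected ratio of the promoter windows. Left, cumulative share of windows (y axis, %) by ratio (x axis) for 5 groups; right, share of members in each ratio class that gained H3K4me3 or H3K27ac (y axis, %). On the left, members that gained both marks are counted with the H3K4me3 gainers. The curve of the members that gained H3K27ac only lies far left of the other members. On the right, the share of members that gained H3K27ac, with or without H3K4me3, falls from 12.1% to 0.345% across the classes.

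Motif letters were searched on both strands in the 300 bases from 250 before to 50 after the TSS. The TATA motif TATAAA was found at 23.2% of the H3K27ac gainers, 6.94% of the H3K4me3 gainers, 10.5% of the members and 10.8% of all promoters, and at 17.3% of promoters with neither mark, which are also CpG-poor. The PU.1 motif GAGGAAGT was found at 3.46% of members and 2.43% of all promoters, the RUNX motif TGTGGTT at 4.38% and 3.95%, the C/EBP motif TTGCNNAA at 8.05% and 9.14%, an interferon response (ISRE) motif at 4.16% and 3.45%, and a GFI1 motif at 3.67% and 2.92%. At the H3K27ac gainers the shares were 3.57% for PU.1, 8.93% for RUNX, 12.5% for C/EBP, 3.57% for ISRE and 5.36% for GFI1. At the H3K4me3 gainers they were 4.17%, 1.39%, 9.72%, 1.39% and 2.78% in the same order. All are matches of letters in small groups of gainers, with no test.

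The gene lists hold blood cell, immune, neuronal and developmental genes. Of their 249 genes 64 were members (25.7%, against 9.24% of all windows), of which 5 gained H3K4me3 (7.81%, against 3.89% of all members) and 3 gained H3K27ac (4.69%, against 3.03%), with no test. Of these gainers, only CD68, CD300A and TUBB3 kept the H3K4me3 gain at matched peak number, and SIGLEC9 alone kept the H3K27ac gain. Among 30 monocyte and macrophage genes, 10 were members, among them CD14, CD68, ITGAX, CD86, FCGR2A, TLR4 and CCR1. CD68 and FCGR2A gained H3K4me3, and FCGR2A also H3K27ac. CD14, the co-receptor for lipopolysaccharide, had 406 bp of H3K4me3 in Corin replicate 1 and 0 bp in the other 3 libraries of that mark. CCR1, a chemokine receptor, had 605 bp of H3K4me3 in Corin replicate 2 alone, and H3K27ac of 0 and 813 bp in DMSO and 1221 and 1121 bp in Corin. CD86, a T-cell costimulator, had neither H3K4me3 nor H3K27ac in any list, while its H3K4me2 went from 198 and 232 bp to 1450 and 1001 bp.

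Of 34 leukocyte receptor genes, 14 were members. CD300A, an inhibitory receptor of myeloid cells, gained 507 and 609 bp of H3K4me3, with H3K27ac of 299 and 0 bp in DMSO and 434 and 276 bp in Corin. P2RX7, the ATP-gated channel that triggers the inflammasome, gained 440 and 609 bp of H3K4me3 with no H3K27ac in any list. At matched peak number the CD300A gain was kept and the P2RX7 gain was not. SIGLEC9 gained H3K27ac as above. Of 18 granulocyte genes 4 were members, and none gained a mark by the rule. CTSG, the neutrophil protease cathepsin G, had H3K27ac of 532 and 1451 bp in DMSO and 1757 and 1598 bp in Corin. CEBPE, a transcription factor of granulocyte maturation, went from 1108 and 599 bp to 1274 and 1210 bp, and the receptor CXCR2 from 533 and 346 bp to 728 and 1045 bp. In these 3 genes both Corin lists lay above both DMSO lists, while the fourth member, BPI, an antibacterial protein of neutrophils, had no H3K27ac in any list. Among all members with H3K27ac in both DMSO lists, as these 3 had, it was longer in Corin at 51.6%, so nothing is read from the 3. H3K4me3 was absent from all 4 genes.

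Of 25 interferon-stimulated genes, 10 were members, among them MX1, MX2, IFIT1, IFIT3, OAS3, OASL and IRF7, and none gained either mark. IRF7, the interferon regulatory factor, had 222 bp of H3K4me3 and 610 bp of H3K27ac in Corin replicate 1 alone. TRIM22, an antiviral ubiquitin ligase held in the retinoid response list with 3 members of 17, gained 503 and 297 bp of H3K27ac. The TRIM22 gain was not kept at matched peak number. Of 25 neuronal genes repressed by REST and CoREST, 6 were members: SNAP25, SYP, CHGB, TUBB3, VGF and BDNF. TUBB3, a neuronal tubulin, gained 429 and 66 bp of H3K4me3, and another annotated start of it had H3K4me3 in DMSO. The other 5 had neither mark in any list.

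The remaining lists cover stem cells, development and other blood lineages. The stem and progenitor list had 5 members of 20 (HOXA10, ERG, SPINK2, HLF and TAL1), the developmental transcription factors 4 of 32, the T and NK cell genes 4 of 21, the B-cell genes 4 of 12 and the erythroid and megakaryocyte genes 0 of 15. None of these 17 members gained H3K4me3 or H3K27ac by the rule. H3K4me3 was seen in 1 Corin list at HOXA10 (238 bp, replicate 1), TBX3 (259 bp, replicate 2) and EOMES (323 bp, replicate 1), all transcription factors. HOXA10 also had H3K27ac of 488 and 0 bp in DMSO and none in Corin. CD79A, a subunit of the B-cell receptor, had 226 and 0 bp in DMSO and 716 and 792 bp in Corin.

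Most members gained nothing. H3K4me3 and H3K27ac were absent from all 8 lists at 1400 members (75.6%). Their median CpG ratio was 0.669, and 906 were at 0.6 or more. The window was wholly under H3K4me2 in both DMSO lists at 12 of them, and the first 5 by gene symbol are given. ADM, the vasodilator peptide adrenomedullin, CHRM4, a muscarinic receptor, DACT3, a Wnt pathway antagonist, and DLL4, a Notch ligand, had 2001 bp of H3K4me2 in all 4 lists. DNAJC22, a J-domain protein, had 2001 bp in 3 and 1745 bp in Corin replicate 2. A long H3K4me2 domain was therefore also found at promoters without called H3K4me3 or H3K27ac after Corin.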

How the data were processed

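CUT&RUN peak lists of 12 libraries of MOLM-13 cells were used. Per the submitters' processing notes, reads were handled with Trim Galore, Bowtie2, Picard and MACS2 on GRCh38/hg38, with no versions or roles. There is 1 list per library. Each deposited peak has a score of 50 or more whose definition is not given in the sources used here. Scores were compared only inside a list. Lists give no reads, so depth is unknown and no interval that needs it was computed. Among 292523 peaks, 0 ran beyond the end of an hg38 chromosome.

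Peaks were overlapped (1 bp or more) with windows of 1 kb on either side of the gene TSS of 20033 protein-coding genes (GENCODE release 44, mitochondrial genes left out), with Python 3.11.15, numpy 2.4.6 and pandas 2.3.3. A mark was gained when present in both Corin lists and neither DMSO list, and lost in the opposite case. Library totals were compared by exact two-sided permutation. Calls were tested on simulated data. The members, gene lists and tests were chosen with earlier results of these data known.

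Named genes were all members gaining both marks, the 10 longest gains of each mark in Corin, list members that gained a mark, 5 members with the longest H3K4me2 among those with neither mark (12 were tied and the first by gene symbol were taken), and the 2 genes nearest the threshold on each side. List members that gained no mark and other genes named were chosen after their values were seen. Alternatives were other windows (500 bp, 2 kb), an overlap of 200 bp, a score of at least 100, a matched number of peaks (17599 for H3K27ac, 30896 for H3K4me2, 11104 for H3K4me3), all annotated starts, leaving out each library and a replicate block. A limit of 5 kb to DMSO H3K4me3 and the split by CpG content were added after seeing the data.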

Additional observations from a re-analysis of the deposited data

How the results depend on the processing

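The number of members ranged from 1822 to 1928 under the other windows, overlaps, scores, matched peak number and annotated starts, from 1902 to 2245 when a DMSO library was left out, and was 1651 with no DMSO H3K4me3 within 5 kb. At matched peak number, 42 members gained H3K4me3, 17 gained H3K27ac and 0 gained both; that setting removes the lowest-scoring peaks of the longer Corin lists. Leaving out 1 library gave 72 to 231 members gaining H3K4me3, 80 to 93 gaining H3K27ac and 2 to 7 gaining both; a call then needs fewer lists. Both marks were gained by 4 members in windows of 500 bp, 4 over all annotated starts and 1 at a score of at least 100; the cause was not tested. The log2 ratios of H3K27ac kept their direction under every alternative run, and leaving out 1 library gave 0.83 to 0.95 for members with a peak, 0.93 to 1.21 for covered length and 0.29 to 0.60 for the difference from promoters with both marks. Same-numbered Corin and DMSO libraries deviated together, with correlations over windows of 0.260 for H3K4me2, 0.218 for H3K4me3 and 0.296 for H3K27ac, but each mark had only 2 numbers, and their meaning is not labelled. With the replicate block the log2 ratios were 0.89, 1.07 and 0.44, each at p = 0.5 by exact sign-flip, the smallest it can give. The precision is limited by 2 libraries per group and by unknown depth.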

Other observations

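The share of genes with H3K4me2 and no H3K4me3 in DMSO was counted in some gene families, which were chosen after the values were seen, with no test. Of 13 SIGLEC genes, 8 were members, 0 had both marks, and SIGLEC9, SIGLEC12 and SIGLECL1 gained H3K27ac, as 3.03% of all members and 3.06% of all windows did; the gain at SIGLEC12 was not kept at matched peak number. Of 10 Toll-like receptor genes 6 were members (TLR1, TLR3, TLR4, TLR5, TLR6 and TLR9), and none gained a mark, though H3K27ac was seen at 3 in DMSO and 4 in Corin in at least 1 list. Of 16 MS4A genes 5 were members, with H3K27ac at 4 in DMSO and 5 in Corin, and 10 had neither mark. Of 10 LILR genes 4 were members and 6 had neither mark. The axonemal dyneins, not immune genes, had 5 members of 13 (38.5%). Neighbouring genes of a family can be alike in sequence, which was not tested for its part in the calls. The Wnt ligands had 5 members of 19 and the FGF ligands 6 of 22, with median CpG ratios of 0.716 and 0.754, and neither H3K27ac in any list nor a gain of H3K4me3 at any of these 11. In contrast, 14 of 515 ZNF genes (2.72%) were members, against 9.24% of all windows, and 259 had both marks.

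Of the 72 promoters that gained H3K4me3, 4 more are given here, picked after seeing their values. CTSS, the protease cathepsin S, had 590 and 593 bp of H3K4me3 in Corin, and H3K27ac of 39 and 0 bp in DMSO and 441 and 0 bp in Corin. IFI30, a lysosomal thiol reductase, had 328 and 376 bp of H3K4me3 and no H3K27ac in any list. TIRAP, an adaptor of Toll-like receptors, had 399 and 400 bp of H3K4me3 and likewise no H3K27ac. PRAM1, an adaptor of myeloid cells, had 248 and 782 bp of H3K4me3, and its H3K27ac went from 0 and 211 bp in DMSO to 1293 and 1387 bp in Corin.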
